A study of Mus musculus with 768 samples.

Results

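The genes described here are 10 of the 24490 endogenous genes counted in cancer-associated fibroblasts (CAFs) of mouse mammary tumors, chosen by symbol as members of vascular endothelial growth factor (VEGF) and angiopoietin signalling. They are the ligands *Vegfa*, *Vegfb*, *Vegfc* and *Pgf*, the angiopoietins *Angpt1* and *Angpt2*, the receptors *Flt1* and *Kdr*, and the co-receptors *Nrp1* and *Nrp2*. The cells came from 2 tumors, both of the strain FVB/N-Tg(MMTVPyVT)634Mul/J at 14 weeks of age, in which the mouse mammary tumor virus promoter drives the polyoma middle T oncogene in the mammary epithelium (MMTV-PyMT). Living cells negative for EpCAM, CD45, CD31 and NG2 had been sorted, a gate that takes away epithelial cells, immune cells, endothelial cells and NG2-positive pericytes, and were sequenced by Smart-seq2, 1 cell per well and 1 tumor per plate. Both tumors carry the same genotype and no treatment, so n is 2 tumors, the wells of a tumor are not replicates, and tumor and plate cannot be told apart.

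VEGF ligands are secreted proteins that bind receptor tyrosine kinases, most of them on endothelial cells. VEGFA signals mainly through the receptor encoded by *Kdr* and drives the sprouting of blood vessels, whereas VEGFB and placental growth factor, encoded by *Pgf*, bind the receptor encoded by *Flt1*, which holds VEGFA tightly and signals weakly. VEGFC acts mainly on *Flt4* and drives lymphatic growth. Neuropilins, encoded by *Nrp1* and *Nrp2*, are co-receptors for VEGF and for class 3 semaphorins. Angiopoietins act on the endothelial receptor encoded by *Tek*. ANGPT1, typically made by mural and mesenchymal cells, activates it and stabilises vessels, and ANGPT2 opposes it in many settings.

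Wells with at least 10000 endogenous reads numbered 727 of 768, and 0 wells had identical columns. They were split by *Rgs5*, a mural cell gene, and *Dcn*, which encodes the matrix proteoglycan decorin. A well was called Rgs5-high when its log2(RPKM + 1) of *Rgs5* was at least 5 and at least 2 above that of *Dcn*, Dcn-high in the reverse case, and remaining otherwise. RPKM scales the reads of a gene to the length of its gene model and to the reads of the well. This gave 265 Rgs5-high wells in tumor 1 and 242 in tumor 2, 87 and 84 Dcn-high wells, and 21 and 28 remaining wells. The classes carried the markers of their labels as vascular and matrix cells. All 10 of 10 further vascular markers, among them *Higd1b*, *Kcnj8* and *Notch3*, were lower in Dcn-high libraries, and all 10 of 10 matrix markers, among them *Lum*, *Mfap5* and *Pdgfra*, were higher. The authors had named several of these markers, among them *Notch3*, *Lum* and *Pdgfra*, from the same cells. The directions thus describe the classes and are no independent check. Near the border between the classes, 28 wells lay within 1 log2 unit of the margin of 2. Of 17 endothelial markers, some were close to absent and others were read in many wells. *Pecam1* was read in 0 of 507 Rgs5-high and 2 of 171 Dcn-high wells, *Cdh5* in 0 wells of either class and *Tie1* in 2 and 0. In contrast, *Esam* was read in 90.3% of Rgs5-high and 17.5% of Dcn-high wells as a mean over the tumors, *Eng* in 88.9% and 46.1%, *Emcn* in 44.2% and 4.06% and *Plvap* in 37.2% and 50.3%. Median endogenous reads per well were 202729 and 190825 in the Rgs5-high wells of tumors 1 and 2, and 276708 and 232394 in the Dcn-high wells. Dcn-high wells were thus read more deeply, and shares of wells with a read are therefore also given for wells thinned to 50000 reads. Wells below that depth were left out of the thinned shares, 9 and 15 of the Rgs5-high and 5 and 4 of the Dcn-high wells.

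**Figure D1:**
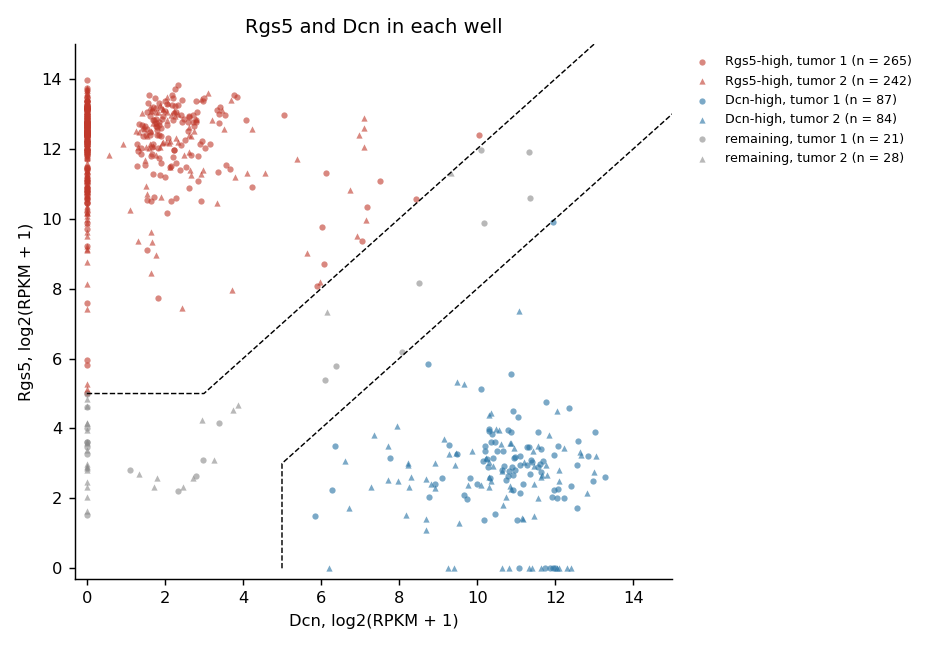
Level of *Rgs5* (y axis) against *Dcn* (x axis) in each well, both as log2(RPKM + 1), with circles for tumor 1 and triangles for tumor 2, red for Rgs5-high, blue for Dcn-high and grey for the remaining wells, and dashed lines at the class limits. Most wells lie far from the limits, and both tumors fill the same areas.

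Of the 10 genes, 9 had a mean of at least 1 RPKM over all wells and were compared between the classes, with the reads summed over the wells of a class in each tumor. *Vegfc* was higher in the Dcn-high cells and *Flt1* in the Rgs5-high cells at a Benjamini-Hochberg adjusted p under 0.05 in edgeR's quasi-likelihood test over 11715 genes. That is 1 gene in each direction of 9, where 9.76% of all genes tested were called higher in Dcn-high and 6.62% higher in Rgs5-high cells, 16.4% in all. *Vegfc* reached that mean through wells other than the Rgs5-high ones, so the count describes these 2 genes and is no result about the 10. The 2 libraries of a tumor came from the same animal. With the tumor as a replicate block, *Vegfa* and *Angpt1* were also called higher in Dcn-high cells and *Nrp2* in Rgs5-high cells, which makes 3 and 2 of 9 against 10.3% and 6.67% of all genes, 16.9% in all. *Pgf*, *Angpt2*, *Nrp1* and *Vegfb* were called in neither fit, and *Kdr* was nearly unread. The classes were drawn from 2 genes of the same wells, so these p-values concern the difference between the classes and not their existence.

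**Figure D2:**
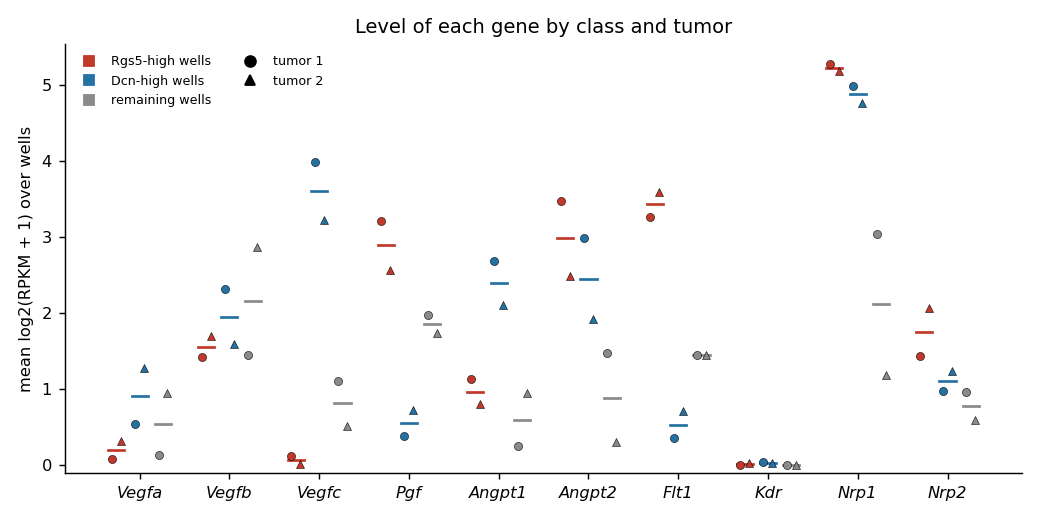
Mean log2(RPKM + 1) over the wells of a class (y axis) for each gene (x axis), with circles for tumor 1, triangles for tumor 2 and a bar at their mean, red for Rgs5-high, blue for Dcn-high and grey for the remaining wells. *Vegfc* is high in blue alone, *Flt1* and *Pgf* are high in red, and *Nrp1* is high in both classes.

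The stretches of 250 bases before the RefSeq start of 3 VEGF ligands are shown because these ligands, members of 1 family, differed in how their reads were spread over the classes. They are taken from the GRCm38.p6 assembly, 5′ to 3′ on the strand of the gene, with the core of the hypoxia response element (ACGTG or GCGTG, on either strand) in capitals.
Vegfc: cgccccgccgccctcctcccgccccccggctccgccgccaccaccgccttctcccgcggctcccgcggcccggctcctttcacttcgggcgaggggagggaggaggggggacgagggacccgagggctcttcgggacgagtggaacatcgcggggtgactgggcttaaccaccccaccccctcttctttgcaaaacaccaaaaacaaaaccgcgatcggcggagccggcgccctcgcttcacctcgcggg
Vegfa: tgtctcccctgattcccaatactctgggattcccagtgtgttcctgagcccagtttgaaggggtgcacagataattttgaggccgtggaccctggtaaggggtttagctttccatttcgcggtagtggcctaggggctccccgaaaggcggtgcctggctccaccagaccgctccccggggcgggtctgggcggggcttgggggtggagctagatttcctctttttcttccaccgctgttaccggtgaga
Vegfb: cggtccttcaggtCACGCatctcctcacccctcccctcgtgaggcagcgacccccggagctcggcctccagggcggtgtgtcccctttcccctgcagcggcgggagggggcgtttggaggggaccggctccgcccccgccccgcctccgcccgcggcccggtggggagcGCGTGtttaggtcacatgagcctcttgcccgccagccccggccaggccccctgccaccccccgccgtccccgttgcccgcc
The *Vegfc* window is chr8:54077282-54077531 on the plus strand, with 0 cores. The *Vegfa* window is chr17:46032378-46032627 on the minus strand, with 0 cores. A second start of *Vegfa* within the gene had 2, in a window that overlaps GENCODE exon sequence of *Vegfa* itself. The *Vegfb* window is chr19:6987652-6987901 on the minus strand, with 2 cores that begin 237 and 81 bases before the start. None of the 3 printed windows overlaps an exon of the GENCODE annotation. Of all 32851 promoter windows of this length, 38.6% held a core. The GC box core (GGGCGG, on either strand), a binding motif of SP factors, was found 2, 2 and 4 times in the *Vegfc*, *Vegfa* and *Vegfb* windows, against at least 1 in 32.7% of all windows. The window of *Vegfb* was 76.4% G and C, that of *Vegfc* 71.6% and that of *Vegfa* 59.2%. The window of *Flt1* and the first window of *Pgf* each held 1 hypoxia core and lie within the RefSeq span of the gene. Those of *Kdr* and *Nrp2* held 2 each, that of *Nrp1* 1 and the second window of *Pgf* 0. These matches describe the letters of the windows and nothing was measured at them.

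*Vegfc* (chr8:54077532-54186454) was the ligand that differed most between the classes. It was read in 67.8% of the Dcn-high wells of tumor 1 (95% confidence interval 56.9 to 77.4%, exact binomial) and 52.4% of those of tumor 2 (41.2 to 63.4%). In Rgs5-high wells the shares were 2.64% (1.07 to 5.37%) and 0.413% (0.0105 to 2.28%). Thinned to 50000 reads, the shares were 64.6% and 51.2% against 1.56% and 0%. Smart-seq2 has no molecular identifiers, so these and all further intervals cover counting error only.

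The normalised CPM, summed reads scaled to the size of the library, of *Vegfc* were 156 and 123 in the Dcn-high libraries of tumors 1 and 2, and 1.96 and 0.0187 in the Rgs5-high libraries. Both Dcn-high libraries were far above both Rgs5-high libraries, and the Dcn-high libraries lay above for 29% of all genes. The log2 fold change was 7.12 (SE 1.39, adjusted p = 0.0244, edgeR, n = 2 tumors), and 7.79 with the tumor as a block (adjusted p = 0.0181). Genes entered the test at a mean of 1 RPKM over all wells, and *Vegfc*, with a mean of 0.451 RPKM in Rgs5-high and 59.4 in Dcn-high cells, did so through wells other than the Rgs5-high ones. With no filter on genes it was 7.06 (adjusted p = 0.00485, edgeR). Of the Rgs5-high reads of *Vegfc*, 117 came from 7 wells of tumor 1 and 1 from tumor 2. The ratio of its CPM in Dcn-high over Rgs5-high cells was 66.0 in tumor 1 (counting interval 54.9 to 80.1) and 5432 in tumor 2 (974 to 214644), where it rests on 1 read. Without the Rgs5-high library of tumor 1 the fitted log2 fold change was 12.59, against 1 read. The call was lost when the remaining wells entered the fit as a class of their own, with a log2 fold change of 7.13 (adjusted p = 0.0914, edgeR), and when the classes were drawn from the marker lists, with 5.78 (0.0657). With a stricter class rule, a level of at least 8 and a margin of 4, the fitted log2 fold change was 11.76 (adjusted p = 0.000152).

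Within the Dcn-high wells *Vegfc* fell into wells without a read and wells at a high level. Its mean level was 3.98 and 3.22 on the log2(RPKM + 1) scale in tumors 1 and 2, but the median RPKM among wells with a read was 75.7 and 86.1, and 60.9% and 48.8% of the wells had at least 10 RPKM. *Vegfc* and *Angpt1* were read in the same well in 44.8% and 34.5% of Dcn-high wells and in 0.755% and 0% of Rgs5-high wells. The remaining wells lay between the classes, with *Vegfc* read in 23.8% and 14.3%.

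*Vegfa* (chr17:46016993-46032377), the main inducer of vessel sprouting, was low in both classes. Its normalised CPM was 6.44 and 36.6 in the Dcn-high libraries of tumors 1 and 2 and 1.11 and 6.61 in the Rgs5-high libraries. The groups overlapped, since the Rgs5-high library of tumor 2 was just above the Dcn-high library of tumor 1. Within each tumor, however, the Dcn-high library was higher, by a log2 fold change of 2.55 in tumor 1 and 2.47 in tumor 2. The joint estimate was 2.48 (SE 1.14, adjusted p = 0.220, edgeR) and did not pass the threshold. With the tumor as a replicate block it was 2.50 (SE 0.39, adjusted p = 0.0186) and passed. It fell to 0.74 without the Dcn-high library of tumor 2 and was 4.27 without the Rgs5-high library of tumor 2.

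Few wells carried *Vegfa*. A read was found in 20.7% (12.8 to 30.7%) and 38.1% (27.7 to 49.3%) of Dcn-high wells and in 1.89% (0.615 to 4.35%) and 7.85% (4.79 to 12%) of Rgs5-high wells. Thinned, the shares were 13.4% and 26.2% against 1.56% and 7.05%. Few reads lay behind these values, and 1 well held 45.1% of the 663 reads of the Dcn-high library of tumor 2 and another 24.3% of the 136 reads of tumor 1. In the Rgs5-high libraries 1 well held 51.5% of the 66 reads of tumor 1 and another 19.5% of the 354 reads of tumor 2. *Vegfa* was higher in tumor 2 than in tumor 1 in both classes, by 0.24 in Rgs5-high and 0.74 in Dcn-high cells in mean log2(RPKM + 1). The same held for all 12 of 12 listed hypoxia target genes in Rgs5-high cells and 10 of 12 in Dcn-high cells, where 54.5% and 41.8% of all genes were higher in tumor 2. Summed levels of 11 epithelial markers were also higher in tumor 2, at 46.5 against 7.55 RPKM in Rgs5-high and 31.5 against 20.8 in Dcn-high cells, with all 11 read in Rgs5-high cells of both tumors and *Krt19* at 0 in Dcn-high cells. Those of 8 developmental markers, among them *Lcn2* and *Trf*, were 311 against 20.6 RPKM in Rgs5-high but 233 against 262 in Dcn-high cells, with all 8 read in both classes of both tumors. Those of 10 immune markers were 13.7 against 1.48 and 5.01 against 25.3, with *Cd3e* at 0 in all 4 libraries. In wells without reads of *Epcam*, *Pecam1*, *Cdh5* and *Ptprc*, *Vegfa* averaged 0.30 in tumor 2 against 0.08 in tumor 1 in Rgs5-high and 1.28 against 0.54 in Dcn-high cells, but reads of the other 10 epithelial markers did not remove a well. The part of the hypoxia targets and of these marker lists in the tumor difference of *Vegfa* was not tested.

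*Vegfb* (chr19:6982472-6987651), a ligand of the receptor encoded by *Flt1*, was present at a middle level in both classes. Its normalised CPM was 20.9 and 15.8 in the Dcn-high libraries and 14.9 and 20.2 in the Rgs5-high libraries. The groups overlapped, and the log2 fold change was 0.06 (SE 0.34, adjusted p = 0.928, edgeR). The sign differed between the tumors, at 0.50 in tumor 1 and -0.35 in tumor 2. A read was found in 54.0% and 36.9% of Dcn-high wells, 29.8% and 34.3% of Rgs5-high wells, and 28.6% and 57.1% of the remaining wells. Thinned, the shares were 39.0% and 30.0% in Dcn-high and 23% and 28.2% in Rgs5-high wells.

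Among Rgs5-high cells, *Vegfb* was higher in cycling wells, those with at least 4 of 8 cycling markers such as *Top2a* and *Mki67*. Its mean log2(RPKM + 1) was 2.62 in 25 cycling and 1.28 in 240 other wells of tumor 1, and 3.27 in 25 and 1.5 in 217 wells of tumor 2. The direction was the same in both tumors, and no test was made over 2 tumors. Cycling wells of tumor 1 also had more reads, with a median of 279630 against 197004, whereas those of tumor 2 had 198206 against 190172. The genes most like *Vegfb* across the Rgs5-high wells were *Smc4*, *Rbbp4* and *Dnmt1*, which serve chromosome condensation, chromatin assembly and DNA methylation. Their correlations of log2(RPKM + 1) averaged 0.20, 0.19 and 0.19 over the tumors, which is weak, and *Vegfb* itself correlated with the depth of the well by 0.12 in each tumor.

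*Pgf* (chr12:85166637-85177785), which encodes placental growth factor, had its highest level in Rgs5-high cells. It was read in 45.7% (39.6 to 51.9%) and 38.8% (32.7 to 45.3%) of Rgs5-high wells, and in 10.3% (4.84 to 18.7%) and 14.3% (7.61 to 23.6%) of Dcn-high wells. Thinned, these were 43.8% and 36.6% against 4.88% and 8.75%. Rgs5-high wells with a read had a median of 178 and 162 RPKM, and *Pgf* was therefore high in some wells and unread in others. *Angpt2* was also split in these wells, with a median of 63.6 and 49.7 RPKM where it was read. A well without a read may still have held the transcript, which was not tested. The normalised CPM was 177 and 126 in the Rgs5-high and 8.14 and 75.2 in the Dcn-high libraries. Both Rgs5-high libraries were above both Dcn-high libraries, as was so for 31.1% of all genes.

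The log2 fold change of *Pgf*, Dcn-high minus Rgs5-high, was -1.87 (SE 0.93, adjusted p = 0.257, edgeR), and -2.54 (adjusted p = 0.176) with the tumor as a block. In 1 Dcn-high well of tumor 2 *Pgf* reached 1237 RPKM, and this well held 70.6% of the 1362 reads of its library. Without that library the log2 fold change was -4.21, with 1 Dcn-high library left. Tumor 1 alone gave -4.43 and tumor 2 alone -0.74, with no test. These were the extremes of all fits that left out 1 library or 1 tumor. *Pgf* and *Flt1* were read in the same well in 32.5% and 32.2% of Rgs5-high wells and 3.45% and 5.95% of Dcn-high wells. Across Rgs5-high wells, the genes most like *Pgf* were *Map3k7cl*, *Nrarp*, a target and inhibitor of Notch signalling, and *Ptp4a3*, with mean correlations of 0.35, 0.35 and 0.29. *Pgf* correlated with well depth by 0.18 and 0.24.

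**Figure D3:**
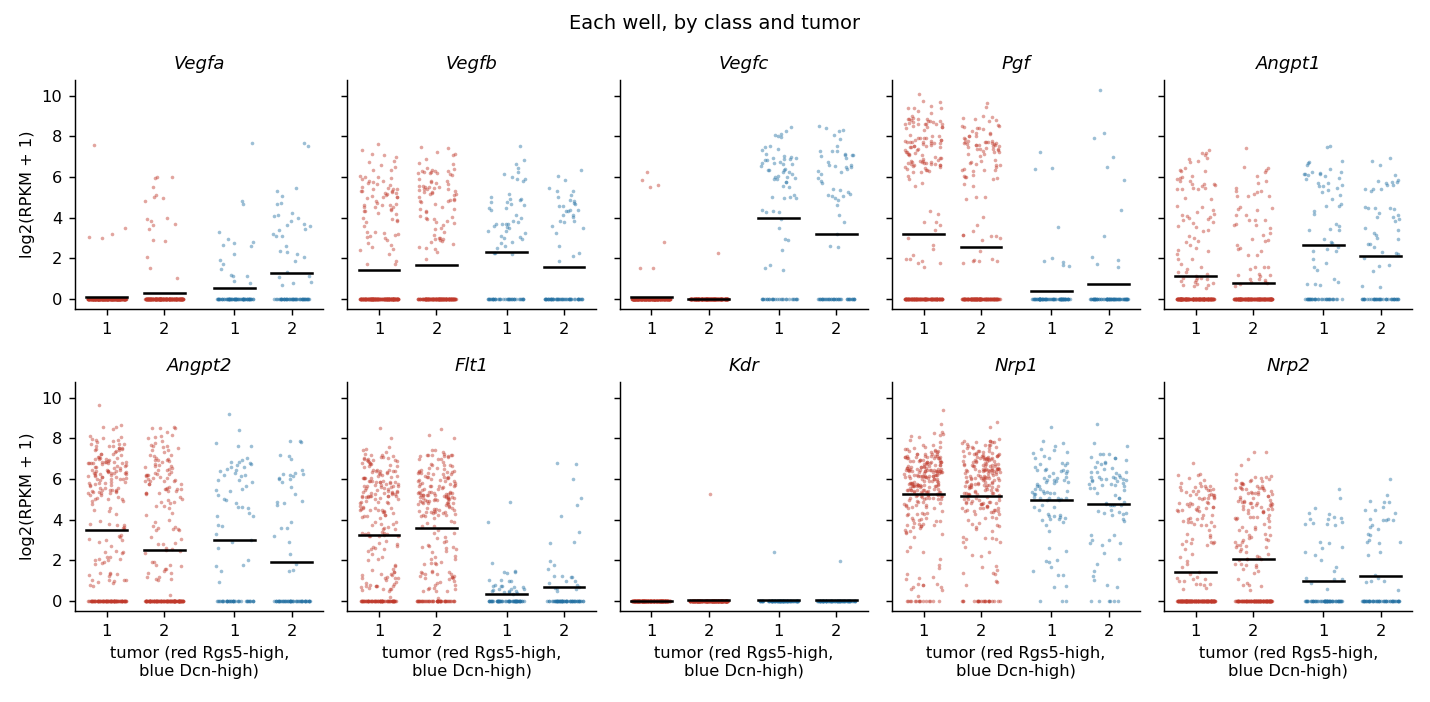
Level of each gene in each well as log2(RPKM + 1) (y axis) by tumor (x axis), red for Rgs5-high and blue for Dcn-high wells, 1 point per well, with a black bar at the mean of all wells of the class. Several genes, among them *Vegfc*, *Pgf* and *Angpt2*, fall into wells near 0 and wells at high level, and *Nrp1* is high in most wells of both classes.

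*Angpt1* (chr15:42424667-42676977), the activating ligand of the receptor encoded by *Tek*, was read in more Dcn-high than Rgs5-high wells. The shares were 60.9% (49.9 to 71.2%) and 52.4% (41.2 to 63.4%) against 29.4% (24 to 35.3%) and 23.1% (18 to 29%). Thinned, they were 51.2% and 46.2% against 23% and 16.7%. Its normalised CPM was 130 and 81.6 in the Dcn-high and 51.9 and 21.6 in the Rgs5-high libraries. The classes did not overlap, with the Dcn-high libraries above, as for 29% of all genes. Its difference, Dcn-high minus Rgs5-high, was 1.53 on the log2 scale (SE 0.47, adjusted p = 0.0918, edgeR) and did not pass. With the tumor as a replicate block it was 1.62 (SE 0.23, adjusted p = 0.0130) and passed. Either tumor alone gave the same direction, 1.35 in tumor 1 and 1.92 in tumor 2. The value was 2.3 (adjusted p = 0.0133) without the Rgs5-high library of tumor 1 and 1.03 (0.150) without that of tumor 2.

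*Angpt2* (chr8:18690263-18741562), the context-dependent antagonist, was read in shares of the classes whose intervals overlapped within each tumor, and its mean levels differed more between the tumors than between the classes. Its shares were 64.5% and 47.9% in Rgs5-high and 56.3% and 36.9% in Dcn-high wells, and thinned 60.2% and 42.7% against 52.4% and 31.2%. The normalised CPM was 238 and 144 in the Rgs5-high libraries and 168 and 90.5 in the Dcn-high libraries, and the groups overlapped. On the log2 scale the difference was -0.56 (SE 0.38, adjusted p = 0.392, edgeR), and -0.59 (adjusted p = 0.0628) with the tumor as a block. Leaving out 1 library or 1 tumor moved it between -1.09 and -0.16. The sign turned when ERCC spike-ins set the library size, with a log2 fold change of 0.12, under which the median of all genes moved by 0.67. In mean log2(RPKM + 1), *Angpt2* of tumor 2 was below that of tumor 1, with 2.48 against 3.47 in Rgs5-high and 1.91 against 2.98 in Dcn-high cells. Within a tumor the Rgs5-high wells were above the Dcn-high wells in both. *Angpt2* lies within *Mcph1*, which had 1502 reads in all, and whether strand was used in the counting is not given in the sources used here, so reads of the 2 genes may not be fully separated.

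The angiopoietins were also counted jointly in each well, without thinning and without a test of the difference between the classes. *Angpt2* without *Angpt1* was read in 42.6% and 33.5% of Rgs5-high wells but 19.5% and 17.9% of Dcn-high wells. *Angpt1* without *Angpt2* was read in 7.55% and 8.68% of Rgs5-high wells but 24.1% and 33.3% of Dcn-high wells. Both genes were read together in 21.9% and 14.5% of Rgs5-high and 36.8% and 19% of Dcn-high wells. In the Dcn-high wells *Angpt2* was most like *Fmo1*, *Egflam* and *Hc*, which encodes complement component C5, with mean correlations of 0.41, 0.41 and 0.39. Among the other genes described here, *Angpt2* had its highest mean correlation with *Nrp1* in these wells, at 0.16 and 0.36 in tumors 1 and 2, though in tumor 1 those with *Vegfb* (0.22) and *Vegfc* (0.20) were higher.

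**Figure D4:**
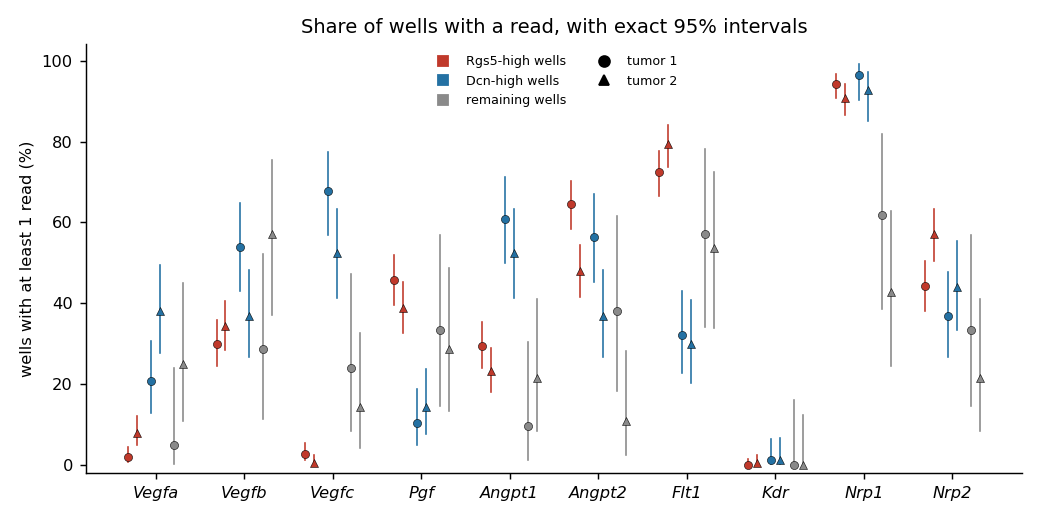
Share of wells with at least 1 read (y axis, percent) for each gene (x axis), with circles for tumor 1, triangles for tumor 2, exact 95% binomial intervals as lines, red for Rgs5-high, blue for Dcn-high and grey for the remaining wells. The intervals of the 2 classes are apart in both tumors for *Vegfa*, *Vegfc*, *Pgf*, *Angpt1* and *Flt1*. The shares are not thinned, and the intervals cover counting error over wells and not the spread between tumors. How often such intervals are apart among all genes was not counted.

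*Flt1* (chr5:147561604-147726438), the high-affinity receptor of VEGFA, VEGFB and placental growth factor, was the receptor that differed between the classes. It was read in 72.5% (66.6 to 77.7%) and 79.3% (73.7 to 84.3%) of Rgs5-high wells, and in 32.2% (22.6 to 43.1%) and 29.8% (20.3 to 40.7%) of Dcn-high wells. Among wells with a read, the median was 33.1 and 30.9 RPKM in Rgs5-high cells and 0.656 and 1.30 RPKM in Dcn-high cells. Most Dcn-high wells with *Flt1* thus held only traces, and after thinning the shares were 65.2% and 71.8% against 13.4% and 13.8%. Traces of *Rgs5* itself were read in 94.3% and 85.7% of Dcn-high wells, with a median of 7.05 and 6.58 RPKM among them, against 5731 and 5315 RPKM in Rgs5-high wells. Across the Dcn-high wells the genes most like *Flt1* were *Rgs4*, one of the 10 vascular markers, *Pde4a* and *Rgs16*, with mean correlations of 0.31, 0.30 and 0.30 over the tumors, which are weak. The part of such traces in those of *Flt1* was not tested.

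The normalised CPM of *Flt1* was 237 and 248 in the Rgs5-high libraries and 5.92 and 27.4 in the Dcn-high libraries. The classes did not overlap, with the Rgs5-high libraries above, as for 31.1% of all genes. The log2 fold change, Dcn-high minus Rgs5-high, was -3.87 (SE 0.72, adjusted p = 0.0204, edgeR), a level 14.6-fold higher in Rgs5-high cells, and -4.21 (adjusted p = 0.0135) with the tumor as a block. Tumor 1 alone gave -5.31 and tumor 2 alone -3.18. In tumor 2, 1 well held 39.3% of the 496 reads of the Dcn-high library. The adjusted p was 0.0587 when each well was scaled to the same total before summing and 0.0906 when the remaining wells entered the fit, which ends the call. Over all alternatives the log2 fold change of *Flt1* lay between -5.35 and -3.16. Of 17 endothelial markers, 6 were at 0 in each of the 4 libraries, among them *Cdh5* and *Robo4* in all 4. The summed level of the list was 511 and 534 RPKM in Rgs5-high and 56.3 and 50.2 RPKM in Dcn-high cells. Most of that gap lay in *Esam*, with a mean RPKM over the tumors of 321 in Rgs5-high and 3.49 in Dcn-high cells, *Emcn*, with 91.4 and 0.174, and *Eng*, with 89.1 and 26.3. Their part in the difference of *Flt1* was not tested. Counts per gene do not separate the membrane-bound from the soluble product of *Flt1*, a secreted decoy for VEGFA. In Rgs5-high wells *Flt1* was most like *Vim*, *Col1a1* and *Eif4ebp1*, with mean correlations of 0.37, 0.36 and 0.34, and it correlated with depth by 0.24 in each tumor.

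*Kdr* (chr5:75932827-75979072), the main signalling receptor for VEGFA on endothelium, was read in 1 of 507 Rgs5-high and 2 of 171 Dcn-high wells. It was read in 0 of 265 Rgs5-high wells of tumor 1 (0 to 1.38%, exact binomial) and in 1 of 242 of tumor 2. In Dcn-high wells it was read in 1 of 87 and 1 of 84. Its highest level was 37.4 RPKM in 1 Rgs5-high well, and it was not tested. Wells that held *Flt1* thus lacked detectable *Kdr* almost throughout, as they lacked *Pecam1* and *Cdh5*. Other endothelial markers were not absent. As means over the tumors, *Esam* was read in 90.3% of Rgs5-high wells and *Eng* in 88.9%. *Emcn* was read in 44.2% and *Plvap* in 37.2% of them. *Flt4*, the receptor for VEGFC, was read in 6 of 507 Rgs5-high and 2 of 171 Dcn-high wells. *Tek*, the angiopoietin receptor, was read in 3 of 507 and 24 of 171. Its share, Dcn-high minus Rgs5-high, was 20.7 percentage points in tumor 1 and 5.90 in tumor 2. The exact binomial intervals of the classes were apart in tumor 1 only.

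*Nrp1* (chr8:128358591-128505476), the co-receptor that enhances VEGFA binding, had the highest mean log2(RPKM + 1) of the 10 genes in both classes. By mean RPKM without the log, averaged over the tumors, it was second, with 71.9 against 86.1 for *Pgf* in Rgs5-high cells and 57 against 59.4 for *Vegfc* in Dcn-high cells. In tumor 2 alone, *Nrp1* was above *Pgf* in Rgs5-high cells, at 71.6 against 68.2. In Dcn-high cells of tumor 2 *Nrp1* was close to *Vegfc*, at 55.4 against 55.8. On the log2(RPKM + 1) scale it averaged 5.22 ± 0.07 in Rgs5-high and 4.87 ± 0.16 in Dcn-high cells (SD, n = 2 tumors), and it was read in 94.3% and 90.9% of Rgs5-high and 96.6% and 92.9% of Dcn-high wells, and thinned in 92.2% and 90.7% against 93.9% and 86.2%. Its normalised CPM was 449 and 444 in the Rgs5-high and 415 and 343 in the Dcn-high libraries. These did not overlap, with the Rgs5-high libraries above, as for 31.1% of all genes. The log2 fold change was only -0.23 (SE 0.16, adjusted p = 0.416, edgeR), and it was 0.43 with ERCC spike-ins as the library size. In the remaining wells *Nrp1* was lower, at 3.04 and 1.18 in mean log2(RPKM + 1), and was read in 61.9% and 42.9%. These wells had fewer reads, with medians of 157752 and 115578. Thinned to 50000 reads, *Nrp1* was read in 50.0% and 26.3% of the remaining wells that reached this depth. In Dcn-high wells *Nrp1* was most like *C1ra*, a complement protease, *Lamc1*, a laminin chain, and *Plat*, tissue plasminogen activator, with mean correlations of 0.46, 0.44 and 0.44.

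*Nrp2* (chr1:62703317-62818692), a co-receptor for VEGFC and semaphorins, was the lower of the neuropilins. Its normalised CPM was 62.2 and 87.7 in the Rgs5-high libraries and 27.1 and 42.2 in the Dcn-high libraries. The Rgs5-high libraries were above without overlap, as for 31.1% of all genes. The log2 fold change, Dcn-high minus Rgs5-high, was -1.11 (SE 0.31, adjusted p = 0.0712, edgeR) and did not pass. With the tumor as a replicate block it was -1.13 (SE 0.20, adjusted p = 0.0253) and passed. DESeq2 gave an adjusted p of 0.00977. The tumors alone gave -1.18 and -1.06, and without the Dcn-high library of tumor 2 it was -1.46 (adjusted p = 0.0440, edgeR). With ERCC spike-ins as the library size the value was -0.45. *Nrp2* was read in 44.2% (38.1 to 50.4%) and 57% (50.5 to 63.4%) of Rgs5-high wells and 36.8% (26.7 to 47.8%) and 44.0% (33.2 to 55.3%) of Dcn-high wells, intervals that overlap within each tumor, and thinned in 37.1% and 51.5% against 24.4% and 40.0%.

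**Figure D5:**
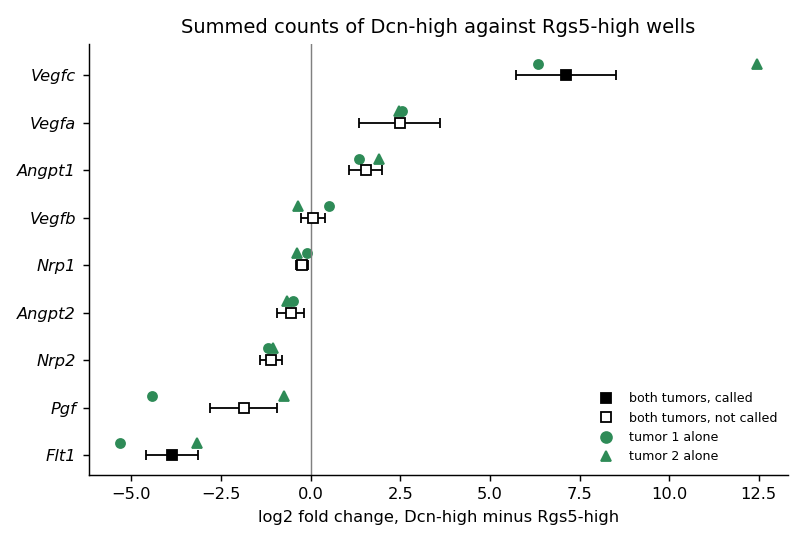
Log2 fold change of the 9 genes tested, Dcn-high minus Rgs5-high (x axis), with squares for the edgeR estimate over both tumors, bars of 1 SE, filled squares for an adjusted p under 0.05 without the block, and green circles and triangles for tumors 1 and 2 alone. *Vegfc* at 7.12 and *Flt1* at -3.87 are filled, and the tumors lie on opposite sides of 0 for *Vegfb*.

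The order of mean levels per gene length differed between the classes. In Rgs5-high cells *Nrp1* was followed by *Flt1* (mean log2(RPKM + 1) of 3.42 ± 0.24, SD, n = 2 tumors), *Angpt2* (2.97 ± 0.70) and *Pgf* (2.88 ± 0.46), whose ranges over the tumors overlapped. *Nrp2* (1.75 ± 0.45) and *Vegfb* (1.55 ± 0.20), which also overlapped, came next, then *Angpt1* (0.96 ± 0.24). *Vegfa*, *Vegfc* and *Kdr* were at 0.20 or lower. In Dcn-high cells *Nrp1* was followed by *Vegfc* (3.60 ± 0.54) and then by *Angpt2* (2.45 ± 0.75), *Angpt1* (2.39 ± 0.41) and *Vegfb* (1.95 ± 0.52), whose neighbours overlapped. *Nrp2* (1.10 ± 0.18), *Vegfa* (0.91 ± 0.52), *Pgf* (0.55 ± 0.24) and *Flt1* (0.52 ± 0.25) also overlapped from each to the next, and *Kdr* was last. Wells held on average 3.85 and 3.80 of the 10 genes in Rgs5-high and 4.37 and 3.99 in Dcn-high cells. Over all genes, a median of 4056 and 4182 were read in Rgs5-high and 5644 and 5534 in Dcn-high wells.

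Other genes of the pathway were compared in the same fit. Of 13 further VEGF and angiopoietin pathway genes, 8 were tested. By edgeR 3 were higher in Dcn-high cells and 0 in Rgs5-high cells, where 9.76% and 6.62% of all genes were called. Toward Rgs5-high cells 2 of the 8 had an unadjusted p under 0.05, and DESeq2 called 1. All 3, and *Tek*, passed the filter of a mean of 1 RPKM only with the Dcn-high cells, since their means were 0.096 to 0.153 RPKM in Rgs5-high cells, so their count is a description of these genes and not of the list. The 3 include *Ccbe1*, a secreted cofactor for the processing of VEGFC, and *Svep1*, a matrix protein that binds angiopoietins, with log2 fold changes of 5.94 and 8.65. The other is *Figf*, the older symbol of the gene for VEGFD, with 5.39 (SE 0.84). The normalised CPM of *Ccbe1* was 30.3 and 31.6 in the Dcn-high and 0.352 and 0.653 in the Rgs5-high libraries. That of *Svep1* was 798 and 673 against 2.35 and 1.29.

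Class 3 semaphorins are the other ligands of neuropilins and signal through A-type plexins. Of 11 such genes, 7 were tested, and 4 were higher in Dcn-high and 0 in Rgs5-high cells by edgeR, by DESeq2 and at an unadjusted p under 0.05, beside the same 9.76% and 6.62% of all genes. All 4, *Sema3a*, *Sema3b*, *Sema3c* and *Sema3d*, passed the filter only with the Dcn-high cells, having at most 0.194 RPKM in Rgs5-high cells, and the count is again no description of the list. *Sema3a*, which binds NRP1 and repels axons and endothelial cells, had a normalised CPM of 75.5 and 60.2 in Dcn-high and 1.38 and 0.0933 in Rgs5-high libraries, a log2 fold change of 6.51 (SE 1.11). *Sema3d* and *Sema3c* had 3 reads each in all Rgs5-high wells, against 2702 and 1033 in the Dcn-high wells. Their CPM ratios over both tumors, Dcn-high over Rgs5-high, were 2147 (counting interval 734 to 10419) and 821 (280 to 3987).

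Oxygen-sensing genes are regulators of *Vegfa* transcription. Of 8 hypoxia regulators, all 8 were tested, and *Epas1*, a hypoxia-inducible transcription factor, was the 1 called by edgeR, higher in Rgs5-high cells, where 6.62% of all genes were called. DESeq2 called 2 in this direction, as did an unadjusted p under 0.05. In the other direction all of these gave 0. The normalised CPM of *Epas1* was 1339 and 1238 in Rgs5-high and 101 and 100 in Dcn-high libraries (-3.68, SE 0.17, adjusted p = 0.000318, edgeR). The median log2 fold change of the list was -0.06, where that of all genes was -0.03. Of 12 hypoxia targets, 11 were tested and 0 called in either direction by edgeR, where 16.4% of all genes were called, with a median of 0.05. At an unadjusted p under 0.05 it was 1, *Adm*, higher in Dcn-high cells, which was also the 1 called by DESeq2. The target with the largest difference, *Ankrd37*, had 16.2 and 47.3 CPM in Rgs5-high and 0.189 and 8.39 in Dcn-high libraries (-2.90, SE 1.42, adjusted p = 0.248).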

How the data were processed

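Single cells of 2 mammary tumors were profiled by Smart-seq2, 384 wells per tumor, and all 768 wells were assigned to tumors by the plate name in the labels. The authors used STAR to align single-end reads to mm10 and took the counts on RefSeq genes. The deposited counts are whole reads per gene without normalization, and the RPKM table was deposited by the authors as computed with rpkmforgenes. The columns of each table were taken by plate, and 0 were left unused. Wells with at least 10000 endogenous reads were kept, and no doublet caller was run; 37 wells had both class genes at or above the level of 5.

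Levels are mean log2(RPKM + 1), pseudocount 1, over the wells of a class, with the SD over the 2 tumors. For tests, counts were summed per class and tumor into 4 libraries of 19823531 to 55104252 reads. Those genes whose mean RPKM over all wells reached 1 were tested with edgeR 4.0.16 (TMM, glmQLFit, glmQLFTest, no covariate, Benjamini-Hochberg over 11715 genes, adjusted p under 0.05), and the SE is the absolute log2 fold change divided by the square root of F. DESeq2 1.42.0 and the tumor as a block were among the alternatives. The libraries are paired, since each tumor gave both classes, and their deviations from the class means correlated by 0.146. The p-values measure the spread between the 2 tumors, which were also 2 plates. On simulated counts for this comparison, 0 of 50 genes changed 2-fold were called, 24 of 50 changed 4-fold and 49 of 50 changed 8-fold, with 4 of 11515 unchanged genes called.

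All 10 genes are described. Of each further list, at most 3 called genes in each direction with the largest change are named, or the 1 with the largest change, and most-like genes are the 3 with the highest mean correlation among genes read in at least 25% of the wells of the class. *Adm* and the endothelial receptors were named after their values were seen. The genes and lists were chosen with earlier results of these data known. Coordinates and promoter windows are from RefSeq on GRCm38.p6, the assembly of mm10, with exons from GENCODE; windows were found for 8 of the 10 genes and not for *Angpt1* and *Angpt2*.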

Additional observations from a re-analysis of the deposited data

Results flagged for a closer look

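*Vegfb* was the only one of the 9 genes tested whose difference between the classes had opposite signs in the tumors. Its log2 fold change, Dcn-high minus Rgs5-high, was 0.50 in tumor 1 alone and -0.35 in tumor 2 alone. Each value rests on 1 library per class, and the difference between the tumors was not tested.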

How the results depend on the processing

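With 2 tumors, few small differences could be called. Of the 10 genes, 1 was called higher in Dcn-high and 1 in Rgs5-high cells. With the tumor as a replicate block these were 3 and 2, with DESeq2 2 and 2, without a filter on genes 1 and 2, without wells with *Epcam*, *Pecam1*, *Cdh5* or *Ptprc* reads 1 and 2, with marker-list classes 0 and 2, with wells scaled to the same total 1 and 0, and with 3 classes or an adjusted p of 0.001 0 and 0. ERCC library sizes gave 2 and 1. The block changed no other call among the 10 genes. All genes called were 1143 and 775. They were 471 and 222 with 3 classes, 136 and 58 at 0.001, 1289 higher in Rgs5-high cells with DESeq2 and 3486 higher in Dcn-high cells with ERCC library sizes, where 87.0% of the calls were higher in Dcn-high cells against 59.6%. Genes of the further pathway lists called were 7 and 1, where 9.76% and 6.62% of all genes tested were called. The pathway genes called were 15 higher in Dcn-high cells with ERCC library sizes, 4 with 3 classes and 3 at 0.001, and 3 higher in Rgs5-high cells with DESeq2 and 2 with marker-list classes. The 7 passed the filter on mean RPKM only with the Dcn-high cells, so these counts are no result about the lists. Leaving out 1 library, where the lone library of a class is assumed to vary like the other class, gave 1 to 2 of the 10 genes higher in Dcn-high and 1 to 3 in Rgs5-high cells, 486 to 848 of all genes higher in Rgs5-high cells, and 1 to 3 pathway genes higher there. The sign turned for *Angpt2* (0.12) and *Nrp1* (0.43) with ERCC library sizes, and for *Vegfb* (-0.071) without the wells named above. Leaving out 1 library or 1 tumor moved *Vegfb* between -0.35 and 0.50. The causes were not tested. Over all tested alternatives, the adjusted p of *Vegfc* was 0.000131 to 0.0914 and that of *Flt1* 5.23e-10 to 0.0906, below 0.05 in 16 of 18 for each.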
